A study of Mus musculus with 2 samples.

Results

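The 10 genes described here mark Kupffer cells, the resident macrophages of the liver, and were compared between the liver transcriptomes of Pgrmc1 knockout (KO) and wild-type (WT) mice. They were found by gene symbol: Clec4f, Vsig4, Cd5l, Folr2, Cd68, Adgre1, Marco, Timd4, Csf1r and Cd163. All 10 are among the 24054 genes of the deposited expression table, where Adgre1 is listed under its older symbol Emr1. The KO mice (Pgrmc1 -/Y) lack exons 1 and 2 of Pgrmc1, an X-linked gene for a heme-binding membrane protein, after a floxed allele made in C57BL/6N was crossed to Sox2-Cre mice. Deletion was in the whole body and not limited to 1 liver cell type. Strain is given as C57BL/6 for both genotypes, and all mice were males of 8 to 12 weeks. Whether the WT mice carried Cre is not given in the sources used here. Equal masses of liver RNA (2.5 μg) from each of 5 mice were pooled per genotype, and each pool was sequenced as 1 library. The spread between mice was therefore not measured, no value below has a replicate check, and no p-value was computed.

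Kupffer cells line the liver sinusoids, where they take up bacteria, aged red blood cells, modified lipoproteins and immune complexes from portal blood. They depend on signalling through the receptor Csf1r and on cues from their endothelial and stellate neighbours. Among liver cells their RNA is a small part of the whole, since hepatocytes make up most of the tissue mass. In whole-liver RNA, a change in the number of Kupffer cells and a change in RNA per cell cannot be told apart.

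Levels are in TPM, a gene's scaled share of the transcripts, which accounts for gene length, so genes can be ranked within a library. The TPM of all genes added up to 1005325 for the KO pool and 994702 for the WT pool, and not to 1 shared total. Changes are log2((KO TPM + 1)/(WT TPM + 1)), which understates the change of low genes. The authors' second table holds a mean per pool, from which reads were estimated. For each gene a 95% Clopper-Pearson interval was set on the log2 ratio of these means. It covers counting error only, and not the differences between mice. The libraries held 22086688 (KO) and 29710410 (WT) estimated reads on genes. Pgrmc1 itself followed the labels, at 0.68 TPM in the KO pool against 949.49 in WT, a log2 change of -9.14. The hepatocyte marker Alb (serum albumin), at 47241.8 TPM in the KO pool against 49729.1 in WT, was far above every Kupffer cell marker.

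As a group, the Kupffer cell markers were slightly higher in the KO pool. Of the 10 genes, 9 had a log2 change above 0 and 1, Cd68, was below 0. The median change was 0.17, and the levels summed to 258.00 TPM in the KO pool against 227.75 in WT, a ratio of 1.13. On the authors' means, the summed log2 ratio was 0.20 (95% counting interval 0.16 to 0.24, from 8084 and 9493 estimated reads). Of all 11623 genes whose mean level reached 1 TPM, 45.8% had a change above 0 and the median was -0.013. Among the 7433 of these with a mean level within the range of the markers, 43.8% had a change above 0 and the median was -0.020. On the TPM + 1 scale, 0 of the 10 markers reached a fold of 1.4 for a rise or 0.6 for a fall. Of all genes, 1.21% (rise) and 0.301% (fall) passed. These folds follow the fold part of the study's rule, read as 0.6 for a fall. The study's calls also required a posterior probability, which was not used here. On the authors' means, 1 marker passed as a rise, Folr2 at a log2 change of 0.49, and so did 2.56% of all genes. At 1.2-fold, 2 markers passed as higher in KO, Folr2 and Cd163, and 0 as lower. At 1.2-fold, 5.39% of all genes were higher and 5.51% lower in KO. In the markers' own range of levels the shares were 3.83% and 4.92%.

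**Figure D1:**
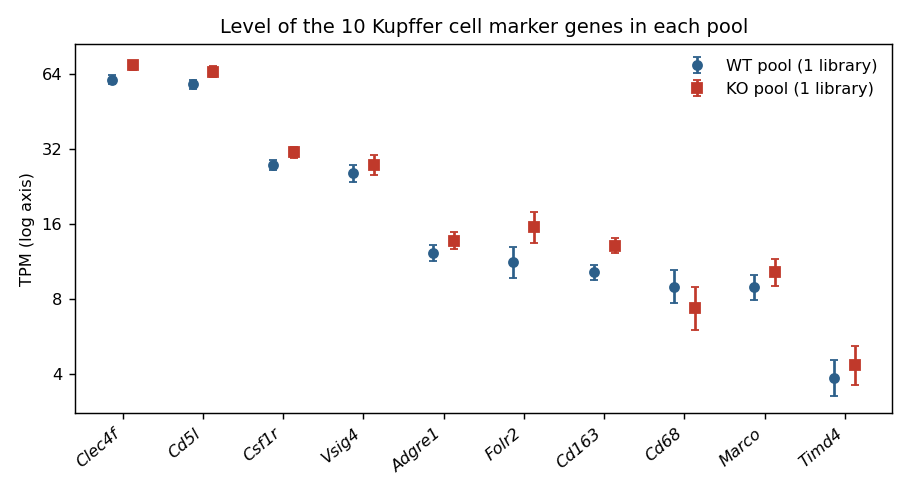
Level of each of the 10 Kupffer cell marker genes in TPM (log axis) in the WT pool (blue circles) and the KO pool (red squares), 1 library each, with 95% intervals for counting error only. Clec4f and Cd5l lie highest, from 58.14 to 69.41 TPM, Timd4 lies lowest, and Cd68 is the only gene with the KO value below the WT value.

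Clec4f, Vsig4 and Timd4 are surface receptors by which resident Kupffer cells of the mouse are recognised. Clec4f, a C-type lectin that binds galactose-bearing glycans and is close to restricted to Kupffer cells in mouse, was at 69.41 TPM in the KO pool against 60.77 in WT. Its log2 change was 0.19 and the interval of its ratio of means, 0.12 to 0.29, lay above 0. Vsig4, a complement receptor that captures opsonised bacteria from the blood, was at 27.62 TPM in the KO pool against 25.62 in WT. With a log2 change of 0.10 and an interval of -0.050 to 0.30, its difference was within counting error. Timd4, a phosphatidylserine receptor carried by long-lived resident macrophages of embryonic origin, had the lowest level, 4.35 TPM in the KO pool against 3.86 in WT. Its log2 change was 0.14, and 122 estimated reads in KO and 145 in WT left an interval of -0.17 to 0.54. All these receptors thus had the KO value above the WT value, by more than counting error for Clec4f alone.

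Cd5l, Marco, Cd163 and Cd68 belong to the scavenging functions of macrophages. Cd5l (also called AIM), a secreted scavenger receptor cysteine-rich protein, was at 65.51 TPM in the KO pool against 58.14 in WT, a log2 change of 0.17 with an interval of 0.093 to 0.28. Marco, a class A scavenger receptor for bacteria and particles, was at 10.24 TPM in the KO pool against 8.94 in WT, a log2 change of 0.18 with an interval of -0.035 to 0.45. Cd163, the receptor for hemoglobin bound to haptoglobin, was at 13.11 TPM in the KO pool against 10.27 in WT. Its 1.25-fold difference on the TPM + 1 scale (log2 change 0.32) was the second highest of the 10 genes. The interval of its ratio of means was 0.22 to 0.50. Cd68, a glycoprotein of late endosomes and lysosomes present in macrophages of many tissues, went the other way. It was at 7.37 TPM in the KO pool against 8.99 in WT, a log2 change of -0.26, and its interval of -0.63 to 0.089, from 105 and 171 estimated reads, held 0.

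Folr2, Csf1r and Adgre1 are surface proteins of tissue macrophages in general. Folr2, a folate receptor, had the highest change of the 10 genes, at 15.59 TPM in the KO pool against 11.24 in WT. This was a 1.36-fold difference on the TPM + 1 scale (log2 change 0.44), with an interval of 0.20 to 0.79 for the ratio of means. The interval came from 199 and 191 estimated reads, part of which could come from an antisense neighbour since the strand setting is not known. Csf1r, the receptor tyrosine kinase for Csf1 and Il34 on which Kupffer cell survival depends, was at 31.06 TPM in the KO pool against 27.63 in WT, a log2 change of 0.16 with an interval of 0.084 to 0.28. Adgre1, the adhesion receptor known as the F4/80 antigen, was at 13.74 TPM in the KO pool against 12.29 in WT, a log2 change of 0.15 with an interval of 0.013 to 0.33. All these intervals lay above 0.

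Over the 10 genes, 6 intervals lay above 0, 0 lay below it and 4 held it (Vsig4, Timd4, Marco and Cd68). Of all genes, 11.7% had an interval above 0 and 13.4% below it, and in the markers' range of levels 9.66% and 14%. How often an interval leaves 0 also depends on the number of reads. Of the 45 pairs of markers, 4 had intervals that did not overlap, and each of these set Cd68 below another gene (Clec4f, Cd5l, Folr2 and Cd163). The change of Cd68 was 0.48 lower on the log2 scale of the ratio of means than that of Clec4f and 0.76 lower than that of Folr2. On the same scale Folr2 was 0.37 above Vsig4 and 0.32 above Adgre1, with intervals that overlapped. Set against the genes in the markers' range of levels, whose 5th and 95th percentiles were -0.26 and 0.23, Folr2 stood at percentile 98.9 and Cd163 at 97.9. Clec4f, Marco, Cd5l and Csf1r stood at percentiles between 90.6 and 92.7. Adgre1, Timd4 and Vsig4 stood between 83.0 and 89.2, and Cd68 stood at 5.38.

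**Figure D2:**
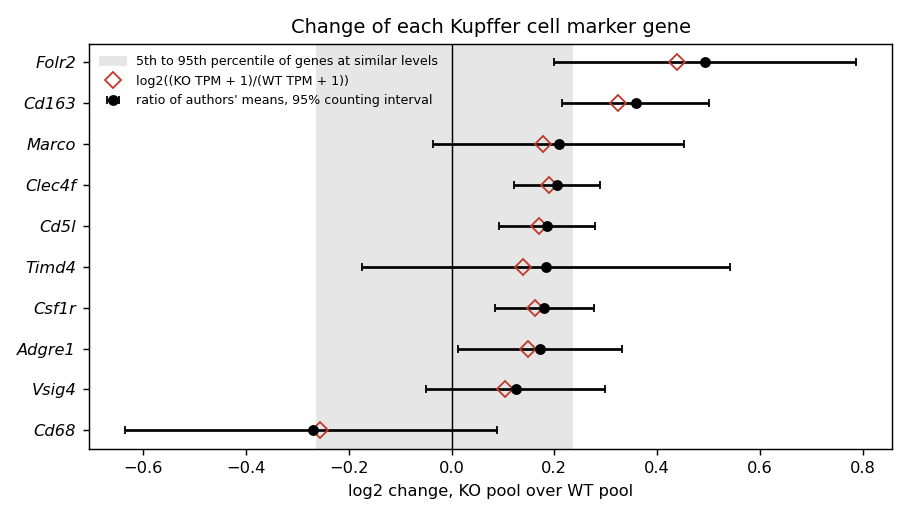
Change of each marker as log2 KO over WT, from the TPM + 1 scale (open diamonds) and from the authors' means (black points, bars are 95% counting intervals), with the 5th to 95th percentile of genes at similar levels in grey (-0.26 to 0.23). Folr2 (0.44) and Cd163 (0.32) lie beyond the grey band, and Cd68 (-0.26) lies at its lower edge with an interval that holds 0.

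The sequence before the start sites was compared among the markers. RefSeq promoters (GRCm38.p6) were matched for 8 of the 10 markers, with 9 starts in all since Folr2 has 2; Adgre1 and Csf1r were not matched. The 250 bases before each start were searched on both strands for GGAAGT. This is a longer form of the GGAA core bound by PU.1, which governs macrophage genes, and by other ETS factors. A window without GGAAGT can still hold GGAA. This core stood before a start of Clec4f, Vsig4, Folr2 and Timd4, 4 of 8 genes, and in 19.7% of all 32851 promoters. It lay 33 bases before the start of Clec4f, 63 before that of Vsig4 and 72 before that of Timd4, and at 136 and 81 bases before the upstream start of Folr2. Distances are counted from the promoter starts. For Timd4, Cd163 and the downstream start of Folr2, these lie inside the gene bounds given further below. The AP-1 motif TGANTCA stood before Cd68 and Folr2 (2 of 9 starts, 6.75% of all promoters). The pattern CANGTG stood before Cd163, Folr2 and Timd4 (3 of 9 starts, 39.5% of all promoters). It is wider than the E-boxes that MITF and TFE factors bind, so a match need not be their site. For Folr2, the matches to TGANTCA and CANGTG lay before the downstream start only, which is not printed below. These matches are letters in a window and were not tested as binding sites. The 250 bases before the start are given for 3 genes with GGAAGT, in capitals, and for Cd68, where GGAAGT is not in the window but GGAA is:
Clec4f (chr6:83656117-83656366, minus strand): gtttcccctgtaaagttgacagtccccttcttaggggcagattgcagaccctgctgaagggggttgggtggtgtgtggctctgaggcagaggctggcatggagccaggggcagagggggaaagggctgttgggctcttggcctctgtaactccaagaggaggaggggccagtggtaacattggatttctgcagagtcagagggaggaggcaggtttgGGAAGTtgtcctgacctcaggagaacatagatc
Folr2 (chr7:101857191-101857440, minus strand): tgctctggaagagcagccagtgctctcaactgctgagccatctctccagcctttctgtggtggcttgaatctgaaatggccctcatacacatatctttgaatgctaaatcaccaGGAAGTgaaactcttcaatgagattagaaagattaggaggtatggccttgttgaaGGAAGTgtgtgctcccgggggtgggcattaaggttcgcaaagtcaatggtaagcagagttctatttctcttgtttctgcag
Timd4 (chr11:46810549-46810798, plus strand): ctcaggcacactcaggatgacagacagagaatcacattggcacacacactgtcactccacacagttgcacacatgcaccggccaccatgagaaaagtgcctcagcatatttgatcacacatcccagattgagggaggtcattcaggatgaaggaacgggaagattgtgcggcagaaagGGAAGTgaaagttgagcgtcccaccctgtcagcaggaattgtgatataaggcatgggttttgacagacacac
Cd68 (chr11:69666171-69666420, minus strand): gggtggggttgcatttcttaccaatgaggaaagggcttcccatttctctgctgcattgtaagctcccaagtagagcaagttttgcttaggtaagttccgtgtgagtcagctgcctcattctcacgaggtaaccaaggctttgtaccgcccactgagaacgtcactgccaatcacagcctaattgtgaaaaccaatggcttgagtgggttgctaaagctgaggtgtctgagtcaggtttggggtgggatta

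The make-up of the group was close in both pools. Clec4f gave 26.9% of the summed TPM in KO and 26.7% in WT, Cd5l gave 25.4% and 25.5%, and Csf1r gave 12.0% and 12.1%. The largest differences in share were those of Folr2, 6.04% in KO and 4.94% in WT, and of Cd68, 2.86% and 3.95%. In order of level, Clec4f, Cd5l, Csf1r and Vsig4 were followed in KO by Folr2, Adgre1, Cd163, Marco, Cd68 and Timd4. In WT, Adgre1 preceded Folr2 and Cd68 preceded Marco. By their counting intervals, neighbours in the KO order could not be separated for Clec4f and Cd5l, Csf1r and Vsig4, Folr2 and Adgre1, or Adgre1 and Cd163. In WT this held for Clec4f and Cd5l, Csf1r and Vsig4, Adgre1 and Folr2, Folr2 and Cd163, Cd163 and Cd68, and Cd68 and Marco. Marco was above Cd68 beyond counting error in KO, while in WT their intervals overlapped.

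On GRCm38 (the mm10 assembly) the markers are spread over 8 chromosomes. Clec4f (83644542 to 83656116, minus strand) and Cd163 (124304636 to 124330529, plus strand) are both on chromosome 6, and Cd68 (69664213 to 69666170, minus strand) and Timd4 (46810786 to 46844333, plus strand) are both on chromosome 11. Vsig4 is on chromosome X (96247201 to 96293438, minus strand), as is Pgrmc1. Cd5l is on chromosome 3 (87357881 to 87371074, plus strand) and Folr2 on chromosome 7 (101839988 to 101857190, minus strand). Adgre1 is on chromosome 17 (57358581 to 57483529, plus strand), Marco on chromosome 1 (120474538 to 120505024, minus strand) and Csf1r on chromosome 18 (61105572 to 61131139, plus strand). Their longest transcripts run from 1204 bases over 6 exons (Folr2) to 4701 bases over 21 exons (Csf1r). No 100-base window of any marker's transcripts was found on the same strand of another gene's transcripts. On the opposite strand, 42.2% of the windows of Folr2 were shared with Gm10602 and 13.5% of those of Csf1r with Hmgxb3. The libraries were stranded, but the strand setting used in counting is named without its value, so part of the reads given to Folr2 and Csf1r could come from these antisense neighbours. Hmgxb3 was at 7.32 TPM in the KO pool against 7.18 in WT, and Gm10602 is not among the listed genes.

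A further 9 genes known from Kupffer cells did not share the group's shift as a list. Their median change was 0.0021, with 5 above 0 (45.8% of all genes), and their summed level in KO was 0.958 of that in WT. They ran from Spic, a transcription factor of iron-recycling macrophages, at 1.24 TPM in the KO pool against 1.70 in WT (log2 change -0.27), to Ccl24, a chemokine, at 2.28 and 1.57 TPM (0.35). Both of these intervals held 0. Of the 9 intervals, 1 lay above 0, that of Sdc3, and 3 lay below it, those of C6, Slc40a1 and Hpgd, all named after their values were seen (11.7% and 13.4% of all genes). Genes of this list such as C6, a terminal complement component, and Slc40a1, the iron exporter ferroportin, are also expressed by hepatocytes. C6 gave the highest level of this list, 239.65 TPM in the KO pool against 254.65 in WT, close to the sum of all 10 markers.

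Genes shared by macrophages of all tissues were above 0 more often than not. Of 16 such genes, 14 had a change above 0 (45.8% of all genes), with a median of 0.090 and a ratio of summed levels of 1.09. Their intervals lay above 0 for 4 genes (Cd14, Mpeg1, C1qa and C1qb) and below 0 for 0 genes, against 11.7% and 13.4% of all genes. Cd14, the co-receptor for lipopolysaccharide, passed the 1.4-fold threshold, at 3.58 TPM in the KO pool against 2.08 in WT (log2 change 0.57, interval 0.26 to 1.36, from 66 and 51 estimated reads). The lowest was Cd86, a co-stimulatory ligand, at 2.06 and 2.17 TPM (-0.051). The subunits of complement C1q, which tissue macrophages secrete, were named after their values were seen. C1qa was at 71.10 TPM in the KO pool against 59.87 in WT (0.24), C1qb at 49.84 and 42.57 TPM (0.22) and C1qc at 57.12 and 53.04 TPM (0.11).

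Few markers of lymphocytes, monocytes, neutrophils and dendritic cells reached a mean of 1 TPM. All 9 T and NK cell genes were under a mean of 1 TPM. Of 8 monocyte genes, 1 passed this filter, Plac8, at 9.87 TPM in the KO pool against 11.44 in WT (-0.19). Ly6c2 and Ccr2, which define inflammatory monocytes, were at 0.67 and 0.91 TPM in KO and at 0.87 and 0.84 TPM in WT. Of 4 neutrophil genes measured, 2 passed, S100a8 with 6 estimated reads in KO and 8 in WT and S100a9 with 17 and 16. The B cell gene Cd79b was at 1.38 and 0.78 TPM (0.42), with an interval of -0.20 to 1.98. Of 8 dendritic cell genes 3 passed, from Clec9a (-0.072) to Batf3 (0.29), with a median of 0.065. Of 6 genes of lipid-associated macrophages, a state seen in fatty or injured liver, 4 passed and all 4 were below 0, with a median of -0.18. They ran from Fabp5 (136.82 TPM in KO, 185.46 TPM in WT, -0.44) to Spp1 (57.81 and 61.41 TPM, -0.086). The interval of Fabp5 (-0.51 to -0.33) alone lay below 0, as for 13.4% of all genes, and the others held 0. Fabp5 was above every Kupffer cell marker in level, and the cells these 4 genes came from were not measured. The defining genes of that state, Trem2 and Gpnmb, were at 0.53 and 0.040 TPM in KO and at 0.57 and 0.060 TPM in WT. Trem2 had 5 estimated reads in KO and 8 in WT, and Gpnmb had 1 and 3.

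Lists for the other resident cells of the liver had medians below 0. Of all genes, 45.8% had a change above 0. Of 13 genes of sinusoidal endothelium 1 was above 0, with a median of -0.089 and a summed ratio of 0.927. They ran from Lyve1, a hyaluronan receptor, at 11.47 TPM in the KO pool against 17.94 in WT (-0.60, interval -0.81 to -0.46), to Dnase1l3 (18.01 and 17.26 TPM, 0.058). Of 12 stellate cell genes 3 were above 0, with a median of -0.15 and a summed ratio of 0.898, from Rgs5 (12.60 and 18.63 TPM, -0.53) to the retinol-esterifying enzyme Lrat (12.81 and 11.25 TPM, 0.17). The 10 hepatocyte genes had a median of -0.077, with 3 above 0, from the urea cycle enzyme Ass1 (-0.47) to the fibrinogen chain Fgb (0.090). Counting intervals lay below 0 for 3 endothelial, 5 stellate and 6 hepatocyte genes, against 13.4% of all genes. They lay above 0 for 0, 1 and 3 genes, against 11.7%. Of 5 cholangiocyte genes 3 passed the filter, from Epcam (0.67 and 1.51 TPM, -0.59) to Krt19 (0.0070). The summed Kupffer cell markers thus stood at 1.13 of the WT level, and the further 9 genes known from Kupffer cells at 0.958. The endothelial, stellate and hepatocyte sums stood at 0.927, 0.898 and 0.960. The sum of the further Kupffer list thus lay among these sums, and that of the markers lay above them. C6 alone gave 239.65 of the 486.08 TPM summed over the further list in KO. The median change of that list, 0.0021, was above the endothelial, stellate and hepatocyte medians. With 1 library per genotype these differences between lists could not be tested.

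**Figure D3:**
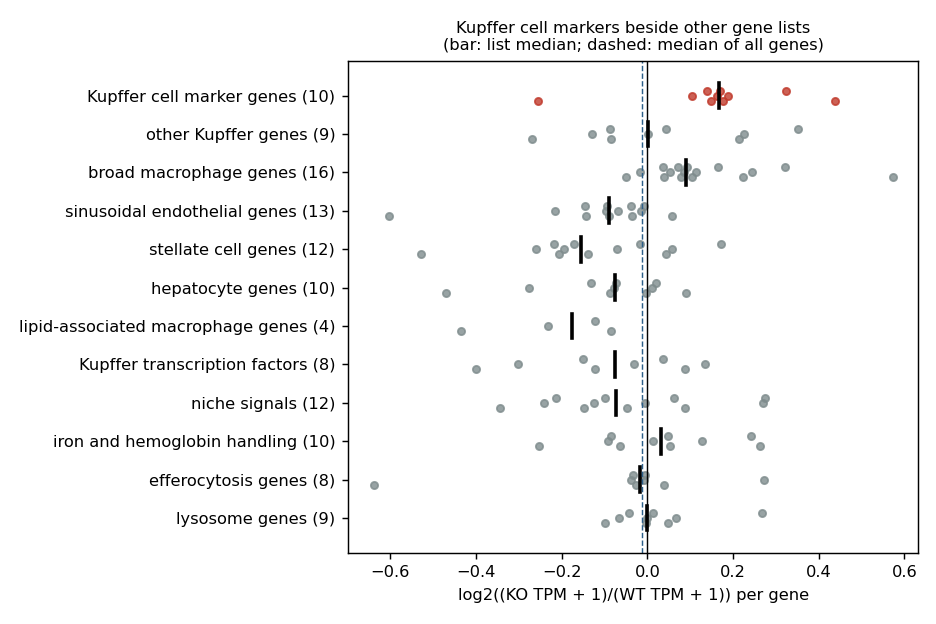
Change of single genes, log2((KO TPM + 1)/(WT TPM + 1)), in the Kupffer cell markers (red) and 11 other gene lists (grey), with each list's median as a bar, the number of genes reaching 1 TPM on average in brackets and the median of all genes as a dashed line. The marker median is 0.17, against 0.0021 for other Kupffer genes and 0.090 for broad macrophage genes. The endothelial, stellate and hepatocyte medians are -0.089, -0.15 and -0.077.

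The signals that maintain Kupffer cells did not move one way. Of the ligands of Csf1r, Csf1 was at 3.45 TPM in the KO pool against 3.19 in WT (0.087), and Il34 at 2.18 and 2.76 TPM (-0.24). Both intervals held 0. Among the ligands with which sinusoidal and stellate cells instruct Kupffer cell identity, the Notch ligand Dll4 was at 2.57 TPM in the KO pool against 3.53 in WT (-0.34), with an interval of -0.79 to -0.12. Dll1, another Notch ligand, was at 1.98 and 2.08 TPM (-0.048). The ligands of the BMP family were at 10.87 and 12.15 TPM for Gdf2 (-0.15) and at 2.97 and 2.28 TPM for Bmp10 (0.28), both with intervals that held 0. Tgfb1, the gene for TGF-β, was at 4.42 TPM in the KO pool against 4.44 in WT. Of the receptors, Tgfbr2 was at 11.67 TPM in the KO pool against 9.51 in WT (0.27, interval 0.16 to 0.45), while Tgfbr1 and Acvrl1 had changes of -0.10 and -0.21 with intervals that held 0. Of these 12 niche genes 4 were above 0 (45.8% of all genes), with a median of -0.073.

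Among transcription factors, Nr1h3 (LXRα), which upholds the Kupffer cell programme, was at 67.05 TPM in the KO pool against 62.98 in WT (0.089, interval 0.013 to 0.21). Zeb2, which preserves macrophage identity, was at 6.21 and 5.57 TPM (0.13, interval 0.034 to 0.31). Id3 and Id1, inhibitors of helix-loop-helix factors that respond to BMP signalling, were lower in KO. Id3 was at 39.47 TPM in the KO pool against 48.91 in WT (-0.30, interval -0.46 to -0.11), and Id1 at 9.39 and 12.72 TPM (-0.40, interval -0.79 to -0.062). Spi1, which encodes PU.1, was at 3.06 and 3.15 TPM (-0.032), and its 49 and 68 estimated reads gave an interval of -0.60 to 0.51. Of 8 factors past the filter 3 were above 0 (45.8% of all genes), with a median of -0.077. Nr1h3, Rxra, Id1, Id3 and Zeb2 are also expressed by other liver cells.

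**Figure D4:**
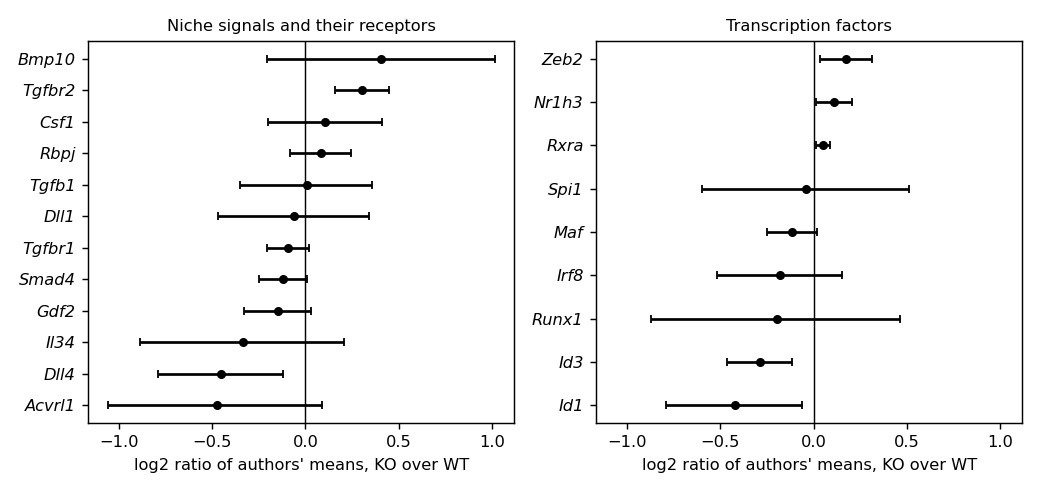
log2 ratio of the authors' means, KO over WT, with 95% counting intervals, for 12 niche signals and receptors (left) and 9 transcription factors (right; Runx1 had a mean under 1 TPM). Tgfbr2, Zeb2, Nr1h3 and Rxra have intervals above 0, and Dll4, Id1 and Id3 have intervals below 0.

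Genes for functions that Kupffer cells share with other liver cells were close to the median of all genes as lists. Some were far above every marker, such as Ftl1 (4115.04 TPM in KO, 4304.63 TPM in WT) and Lamp2 (428.80 and 425.13 TPM). Stab1 and Stab2, among the efferocytosis genes, are also in the endothelial list. These lists therefore do not report Kupffer cells alone. The 10 genes of iron and hemoglobin handling had a median of 0.031, with 6 above 0 (45.8% of all genes). They ran from Hmox1, which degrades heme, at 14.74 TPM in the KO pool against 17.77 in WT (-0.25, interval -0.47 to -0.041), to Hp, haptoglobin, at 2437.23 and 2030.82 TPM (0.26, interval 0.26 to 0.30). Hp is secreted by hepatocytes and is the partner of hemoglobin for uptake by Cd163. The 8 efferocytosis genes had a median of -0.018, from the scavenger receptor Cd36 (10.74 and 17.28 TPM, -0.64) to the bridging ligand Gas6 (22.36 and 18.33 TPM, 0.27). The 9 genes of the lysosome, to whose compartment Cd68 belongs, had a median of -0.00039, with 4 above 0. The highest was the protease Lgmn (53.13 and 43.96 TPM, 0.27).

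Of 6 complement receptor genes 2 passed the filter, Itgb2 (4.72 TPM in KO, 4.21 TPM in WT, 0.13) and C3ar1 (1.72 and 1.24 TPM, 0.28, interval 0.058 to 0.90). Of 13 macrophage activation genes 11 were under a mean of 1 TPM. The cytokine Il1b was at 1.66 TPM in the KO pool against 1.10 in WT (0.34) and its antagonist Il1rn at 1.18 and 1.21 TPM (-0.020), and both intervals held 0. Tnf and Il6 were at 0.15 TPM each in KO, and at 0.18 and 0.060 TPM in WT. Tnf had 1 estimated read in KO and 3 in WT, and Il6 had 1 and 0, too few to compare the pools. Of 12 genes from the families of the markers, such as Adgre4 beside Adgre1 and Scara3 beside Marco, 7 passed. They had a median of -0.088 and ran from Scara3 (1.17 and 1.41 TPM, -0.15) to Adgre4 (4.87 and 4.63 TPM, 0.060). Of their 7 intervals, 0 lay above 0 and 0 below it, against 11.7% and 13.4% of all genes.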

How the data were processed

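For each genotype, liver RNA of 5 male mice was combined and made into 1 stranded total RNA library. Libraries were mapped to genotypes by their labels. The authors converted reads with CASAVA 1.8.2, aligned them to mm10 with Bowtie within RSEM 1.2.09, which divides multiply matching reads among genes, and deposited posterior mean TPM for 24054 genes. A second table deposited by the authors, for 16318 genes, holds EBSeq means, a signal of estimated reads scaled by size factors. The posterior probabilities and fold changes in that table are the authors' own comparison and were not used.

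From the TPM, log2 changes with a pseudocount of 1 TPM were computed, and list summaries used genes that averaged 1 TPM or more. A gene was counted past the fold at 1.4 or 0.6 (the fold part of the study's rule, read as 0.6 for a fall) and at 1.2 or its inverse. The most frequent low value of the authors' means, 1.16 in KO and 0.860 in WT, was taken as 1 read. Within a tolerance of 0.02, 78.4% (KO) and 75.0% (WT) of values were whole reads. The counting intervals are therefore approximate. No p-value was computed, since each genotype had 1 pooled library and no replicate. TPM alone keeps no depth. Counting intervals used these estimated reads, 22086688 in KO and 29710410 in WT, rounded to whole reads per gene. They leave out the error of dividing multiply matching reads among genes. Reads without molecular identifiers are not independent molecules.

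The 10 markers and the 20 other gene lists were chosen with earlier results of these data known. Of 187 listed genes 185 were matched, 3 by an older symbol; Ighm and Ly6g were not. A further 2 genes first listed are not reported here and were left out of every list summary. Named by rule were the markers, Pgrmc1, the niche and transcription factor genes, the highest and lowest gene of every other list and any listed gene past 1.4 or 0.6. Other genes, among them those given as defining a cell type, were named after their values were seen. The alternatives tried were 0.1 TPM as the pseudocount, other filters and folds, the authors' means, TPM rescaled after leaving out the 50 most abundant genes, and changes centred on the median gene. The computation was tested on simulated data and used Python 3.11.15, numpy 2.4.6, pandas 2.3.3 and scipy 1.17.1.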

Additional observations from a re-analysis of the deposited data

How the results depend on the processing

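No paired analysis was possible because only 1 pooled sample per genotype was sequenced. The 9 markers above 0 stayed 9 with a pseudocount of 0.1 TPM, with the authors' means, after centring on the median gene, without the 50 most abundant genes and with no filter, and were 7 of 7 at a mean of at least 10 TPM. Over these settings the median change of the markers was between 0.17 and 0.18, and the summed log2 ratio, also taken without Clec4f, was between 0.18 and 0.20. The count of markers past 1.4 or 0.6 was 0 in all of these except with the authors' means, where it was 1, Folr2 at a log2 change of 0.49. At 1.2-fold the count went from 2 to 3 with the authors' means and with the pseudocount of 0.1 TPM, where Cd68 was at -0.27 and -0.28. The change of Pgrmc1 was -10.44 with the authors' means and -10.25 with the pseudocount of 0.1 TPM. The median of the lysosome list turned to 0.015 with the authors' means and 0.013 after centring. With no filter the monocyte median turned to 0.066, the dendritic cell median to -0.042 and the neutrophil median to -0.078, on genes with few reads. The median of all genes was between -0.015 and 0 under the scalings. Markers under about 300 estimated reads (Folr2, Cd68, Timd4 and, in KO, Marco) had the widest counting intervals, and the spread between mice was not measured for any gene.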
